A study of Rattus norvegicus with 20 samples.

Results

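Probes R525, R628, R679, R696, R707 and RG534 are 6 of the 1185 probes on an expression array of rat lung RNA. They were chosen from measured values: the mean at Day 35 lay well above NL, Day 21 and Day 28, and the difference of T from NL was less than 50% of the Day 35 difference. All 6 passed the filter on low values, as did 1173 other probes.

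The study followed the growth of a neointima in lung vessels, together with pulmonary hypertension, in rats over time. Total RNA of whole lung was measured on 20 arrays in 7 labelled groups: 5 arrays labelled NL, 2 of Day 14, 3 each of Day 21, Day 28, Day 35 and T, and a single array titled Normal Day 0. The sample descriptions used here give no strain, age, treatment or agent for any group, do not spell out NL or T, do not place T on a day, and do not state how disease was brought about or whether each array came from its own animal. A p-value here sets a difference of group means against the scatter among arrays within groups, and that scatter may be technical. The tissue could not be checked against marker genes because none of the 6 identifiers, and 0 of all probes, occurred in the rat gene table used here. The probes are therefore given by identifier, and no gene, pathway or sequence is named for them.

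A neointima is a new layer of cells and matrix that forms inside the inner lining of an artery and narrows its lumen. In small pulmonary arteries this narrowing raises the resistance to blood flow, so that pressure in the pulmonary circulation and the load on the right ventricle increase. Whole lung contains airway, alveolar, vascular and immune cells, and the vessel wall is a small part of it. In such a bulk sample a change in the number of cells of a type cannot be told apart from a change in RNA per cell.

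The deposited values are centred on about 0 in each array and have no stated unit or log base, so differences are given in deposited units and not as folds. The spread of an array, taken as its interquartile range over all probes, was 0.42 at the least, in NL arrays 5 and 6, and 1.75 at the most, in Day 21 array 11. It was 1.07 to 1.28 in the Day 35 arrays and 0.61, 1.50 and 1.54 in T arrays 18, 19 and 20. Arrays thus differed in spread also within a group, and the Day 35 range lay inside that of T. The number of arrays limits the precision. A level depends on the probe as well as on the RNA, so values and ranks are used to follow the same probe between arrays.

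The 6 probes had a mean percentile between 41.7 and 69.4 within the NL arrays and a higher level at Day 35, where they showed 2 shapes. R525, R679 and RG534 read within 1 unit of each other in the 3 Day 35 arrays, and R628 had 1 lower array. R696 and R707 read far higher in Day 35 arrays 15 and 16 than in array 17. All of these values served the choice of the probes and are given as a description.

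R525 was read at 0.49, 0.16, -0.36, 0.07 and 0.06 in NL arrays 2 to 6, at 0.22 and 0.09 at Day 14, at 1.02, 0.24 and 0.31 at Day 21, at 0.92, 0.40 and 0.87 at Day 28, at 2.16, 1.58 and 1.79 at Day 35 and at 0.80, 0.74 and 0.53 in T. The 3 Day 35 arrays lay above every other array of the series, and the 3 T arrays lay above all NL arrays. The NL mean was 0.08 ± 0.30 (SD, n = 5), the Day 35 mean 1.84 ± 0.29 (n = 3) and the T mean 0.69 ± 0.14 (n = 3). Day 28 stood next below Day 35, at 0.73 ± 0.29 (n = 3), and Day 28, T and Day 21 overlapped in that order.

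R628 was read at 0.58, -0.31, -0.06, -0.15 and -0.15 in NL, at 0.65 and -0.22 at Day 14, at 0.58, 0.17 and -0.08 at Day 21, at 0.33, 0.12 and 0.54 at Day 28, at 2.14, 0.87 and 1.97 at Day 35 and at 0.31, 0.21 and 0.60 in T. Every Day 35 array was again above every other array, with array 16 closest to them. NL array 2 was the high one of its group, and each of Day 14, Day 21, Day 28 and T overlapped NL. The mean went from -0.02 ± 0.35 (SD, n = 5) in NL to 1.66 ± 0.69 (n = 3) at Day 35 and was 0.37 ± 0.20 (n = 3) in T.

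RG534 was read at 0.81, 0.11, 0.07, -0.20 and -0.13 in NL, at 1.05 and -0.17 at Day 14, at 1.25, 0.49 and 0.18 at Day 21, at 0.47, 0.44 and 1.58 at Day 28, at 2.04, 2.06 and 1.59 at Day 35 and at 0.77, 0.57 and 1.18 in T. Day 28 array 14 came within 0.01 of the lowest Day 35 array, so the separation of Day 35 from the rest was narrow. NL array 2 reached into the range of T. NL averaged 0.13 ± 0.40 (SD, n = 5), Day 35 averaged 1.90 ± 0.27 (n = 3) and T averaged 0.84 ± 0.31 (n = 3), and the mean of T differed from that of Day 28 by 0.01.

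R679 was read at 0.37, -0.09, 0.31, 0.02 and -0.20 in NL, at 0.57 and -0.04 at Day 14, at 0.30, 0.12 and 0.10 at Day 21, at 1.03, 0.12 and 1.20 at Day 28, at 2.00, 1.18 and 1.31 at Day 35 and at 0.42, 0.75 and 0.62 in T. Day 28 array 14 lay above Day 35 array 16, so the 2 groups overlapped, and the Day 28 difference from NL was 49.6% of that at Day 35. Of the 6 probes R679 had the narrowest margin of the Day 35 mean over the highest of NL, Day 21 and Day 28, 0.71 units. From an NL mean of 0.08 ± 0.25 (SD, n = 5), Day 28 stood at 0.78 ± 0.58 (n = 3), Day 35 at 1.50 ± 0.44 (n = 3) and T at 0.60 ± 0.17 (n = 3), and all T arrays were above all NL arrays.

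R696 was read at 1.23, -0.12, 1.07, -0.11 and 0.00 in NL, at 1.44 and 0.33 at Day 14, at 1.13, 0.96 and 0.68 at Day 21, at 0.80, 0.74 and 0.81 at Day 28, at 4.32, 3.41 and 1.36 at Day 35 and at 1.03, 2.09 and 0.57 in T. Day 35 array 17 lay below Day 14 array 7, T array 19 and the Normal Day 0 array, which read 1.44. NL was itself split, with arrays 2 and 4 more than 1 unit above the other arrays. The SD at Day 35 was 1.52 around a mean of 3.03 (n = 3), against 0.41 ± 0.68 (n = 5) in NL and 1.23 ± 0.78 (n = 3) in T, so the high mean at Day 35 rested on 2 arrays.

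R707 was read at 0.40, 1.14, 0.22, 0.10 and 0.34 in NL, at 1.0 and 2.47 at Day 14, at 0.55, 0.29 and 1.59 at Day 21, at 1.20, 0.96 and 1.17 at Day 28, at 3.86, 4.11 and 1.41 at Day 35 and at 1.52, 2.25 and 1.35 in T. Day 35 array 17 was below Day 14 array 8, Day 21 array 11 and T arrays 18 and 19. The mean at Day 35 was 3.13 ± 1.49 (SD, n = 3), next to 1.74 ± 1.04 (n = 2) at Day 14, 1.71 ± 0.48 (n = 3) in T and 0.44 ± 0.41 (n = 5) in NL. R707 was the only one of the 6 whose Day 14 mean came second, and Day 14 and T differed by 0.03, well within their SDs.

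**Figure D1:**
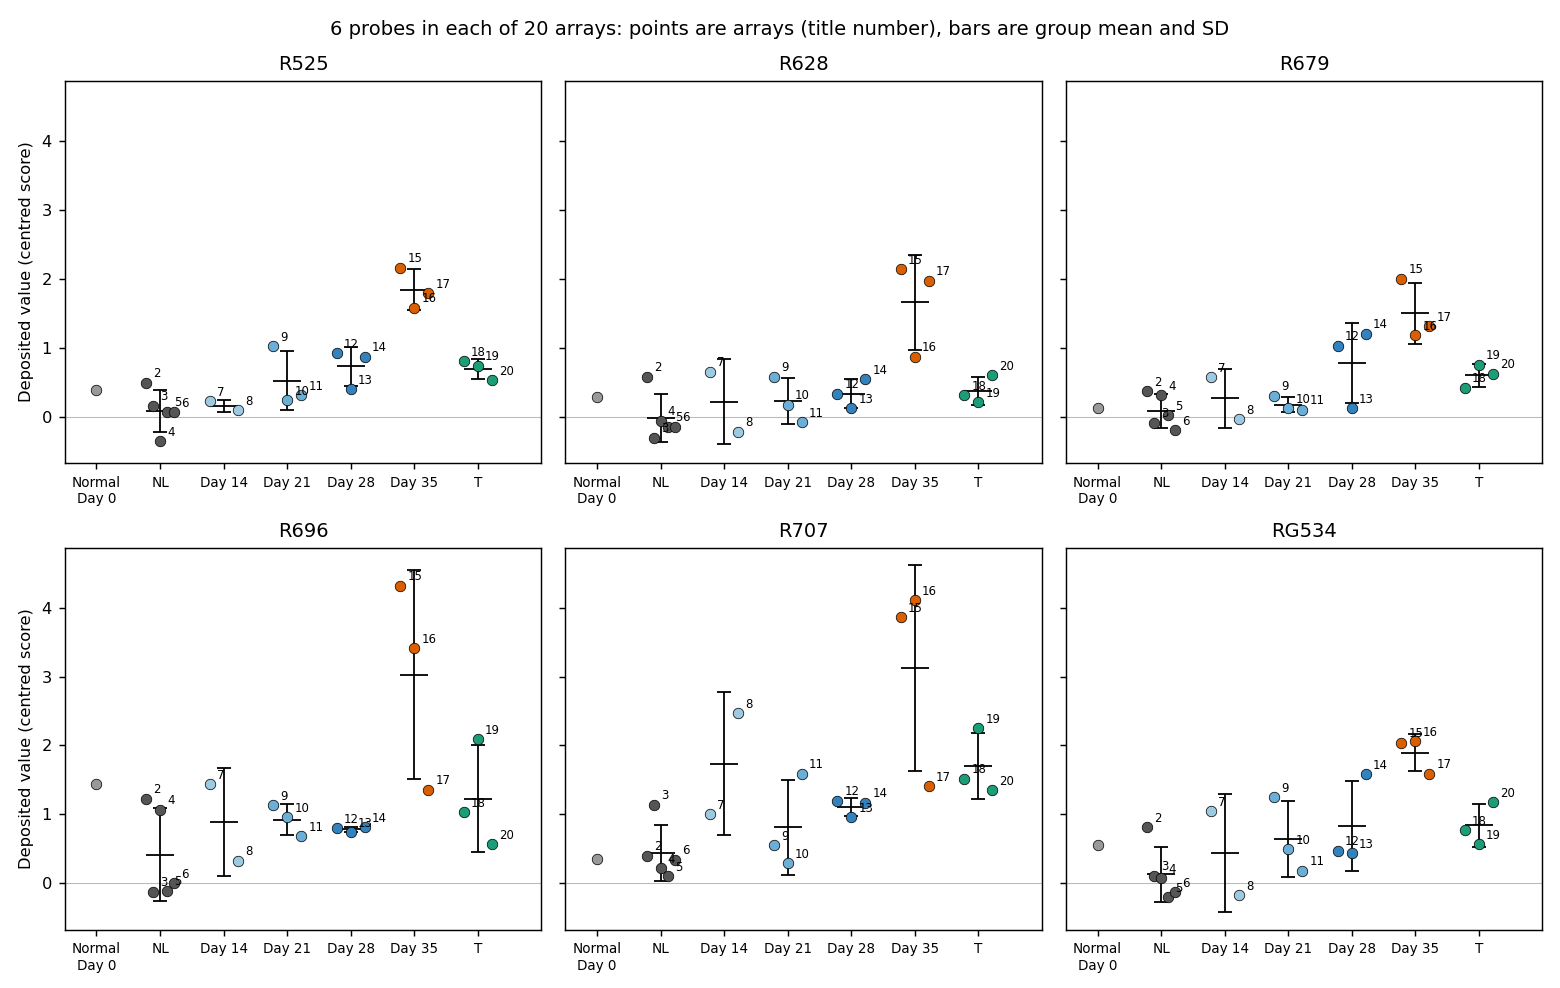
Deposited value (vertical axis, centred score) of each of the 6 probes in all 20 arrays, by labelled group (horizontal axis); points are arrays with the number of their title, and bars give the group mean and SD for groups of 2 or more. The Day 35 points lie above all NL points in every panel, while array 17 lies far below arrays 15 and 16 for R696 and R707.

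The 6 probes were picked for how T stood against Day 35. Every Day 35 array was above every NL array for all 6 probes and for 4.58% of the 1179 probes tested. The choice on group means favours such a separation without forcing it. This also holds for the counts below of Day 35 over T, Day 14, Day 21, Day 28 and all other groups. The Day 14 arrays did not serve the choice, but the high Day 35 mean did. Nothing is read from these counts. Every Day 35 array was above every T array for R525, R628, R679 and RG534, 4 of the 6, with a background of 3.65%; without Day 35 array 17 it was 6 of 6. Against the earlier days, every Day 35 array was above every Day 14 array for 4 of the 6, not for R696 and R707 (background 15.0%), above every Day 21 array for all but R707 (5 of 6, background 6.70%) and above every Day 28 array for all but R679 (5 of 6, background 5.68%). Every Day 35 array was above all arrays of the other 5 groups in the fit for R525, R628 and RG534, 3 of the 6, with a background of 0.933%, and that count was 5 without Day 35 array 17 and 1 with the arrays brought to a common interquartile range. The T arrays all lay above all NL arrays for R525, R679 and R707, 3 of the 6, where the background was 3.05%. The choice used the T and NL values as well, so nothing is read from this count either. NL array 2 was the highest NL array for 5 of the 6 probes, and without it the T arrays cleared NL for 5 of the 6; with a common interquartile range they did so for 2.

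In deposited units the difference of Day 35 from NL was 1.76 for R525 (SE 0.23, from a limma fit over all tested probes), 1.68 for R628 (SE 0.29), 1.41 for R679 (SE 0.26) and 1.76 for RG534 (SE 0.34). It was larger and less precise for R696, at 2.62 (SE 0.53), and for R707, at 2.69 (SE 0.51). Each SE rests on a spread per probe that is shared by the 6 groups of the fit. The Day 35 SD was 1.52 for R696 and 1.49 for R707, above their NL SDs of 0.68 and 0.41. It was also above the NL SD for R628 (0.69 against 0.35) and R679 (0.44 against 0.25). For R696, R707, R628 and R679 the SEs of differences that involve Day 35 thus understate the scatter of the Day 35 arrays. The difference of T from NL was 0.61 for R525, 0.39 for R628, 0.51 for R679, 0.71 for RG534, 0.82 for R696 and 1.27 for R707, with the same SEs. T thus stood above NL in mean for each probe, by a median of 0.66 over the 6 where all tested probes had a median of -0.04. The corresponding medians for Day 35 were 1.76 and -0.02.

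T minus Day 35 ran from -0.90 (SE 0.29) for R679 to -1.80 (SE 0.60) for R696, with a median of -1.22 over the 6 probes against -0.08 over all tested probes. The comparisons of Day 35 and of T with NL share the NL arrays. No p-value is attached to them because the choice of the probes used them.

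The T difference was 23.3% of the Day 35 difference for R628, 31.2% for R696, 34.4% for R525, 36.4% for R679, 40.1% for RG534 and 47.1% for R707. Leaving out 1 array at a time kept R525, R628, R679, R696 and RG534 under 50%, with a highest value of 47.8%. Without T array 19 the share of R696 was 14.8% and that of R628 28.2%, so the order of the 6 shares also rested on single arrays. R707 passed 50% without NL array 3 (50.4%), without Day 35 array 15 (54.6%) or 16 (57.7%), without T array 18 (50.6%) or 20 (53.8%), and with a common interquartile range (51.8%). The place of R707 under the 50% line thus depended on single arrays.

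The rule gives no number for "well above", so the probes near its edge were listed with the smallest margin of the 6, 0.71 units of the Day 35 mean over the highest of NL, Day 21 and Day 28. Of the tested probes, 27 had at least that margin, and 15 of them had a T share under 50%, the 6 and 9 others. RG129 at -4.5%, R477 at 14.9%, RG244 at 18.5% and R325 at 19.1%, all among the others, had a lower T share than any of the 6. Just inside 50% were R707 at 47.1%, R271 at 48.3% and RG416 at 48.6%, and just outside were RG254 at 57.1%, R017 at 59.3% and R536 at 62.2%. By size of the margin R696 and R707 ranked 2nd and 3rd of all tested probes, R628 7th, R525 11th, RG534 14th and R679 27th. The 6 probes are therefore a selection from a larger set with like group means, and R679 sits at its lower end by construction of the margin.

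**Figure D2:**
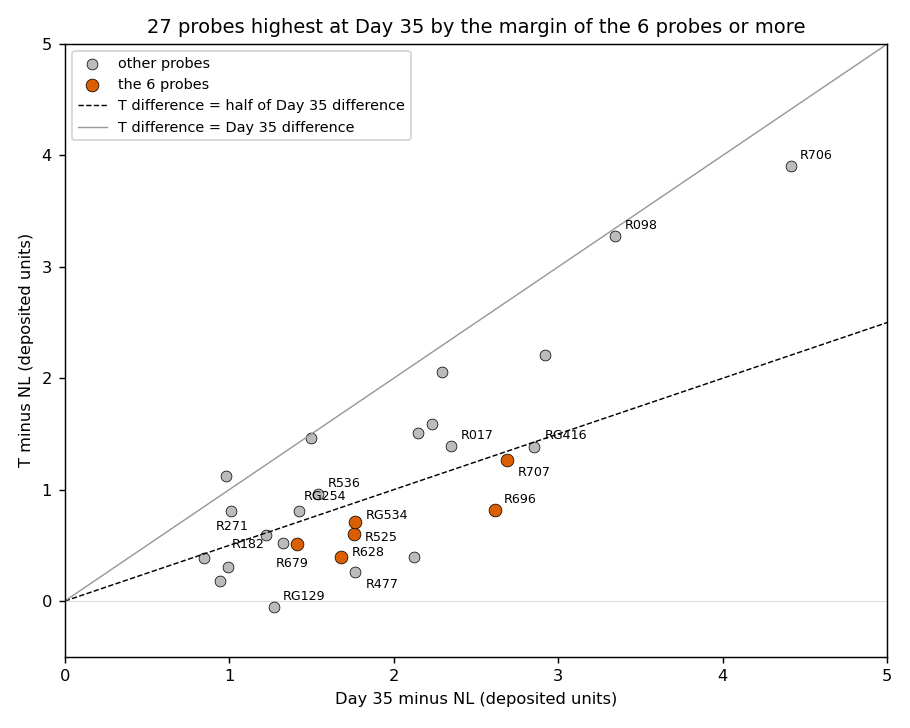
Difference of T from NL (vertical axis) against difference of Day 35 from NL (horizontal axis), both in deposited units, for the 27 probes whose Day 35 mean exceeded NL, Day 21 and Day 28 by at least 0.71 units; orange points are the 6 probes, grey points the others, the dashed line marks a T difference of 50% and the solid line equal differences. The 6 probes lie under the dashed line, R707 closest to it, together with 9 grey points.

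A rank within the array does not change when a whole array is rescaled, so each probe was also placed among the 1185 probes of its own array. In percentile points R525 averaged 52.8 ± 15.8 (SD, n = 5) in NL, 90.0 ± 1.1 (n = 3) at Day 35 and 74.2 ± 9.4 (n = 3) in T. R628 moved from 41.7 ± 16.8 in NL to 87.2 ± 6.1 at Day 35, with T at 65.3 ± 6.9. Both probes were thus among the upper 20% of probes in each Day 35 array, the lowest reading being the 80.1 percentile of R628 in array 16.

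The NL percentiles varied widely for the other probes as well. RG534 lay at the 45.8 percentile on average in NL, between 18.7 and 72.2, at 90.2 at Day 35 and at 77.0 in T. R679 went from 49.5 in NL to 86.2 at Day 35 and 72.1 in T. R696 ranked 22nd and 28th from the top of its array in Day 35 arrays 15 and 16, but 180th in array 17. R707 ranked 31st and 18th in arrays 15 and 16 and 171st in array 17, and its mean percentile in NL was 69.4.

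**Figure D3:**
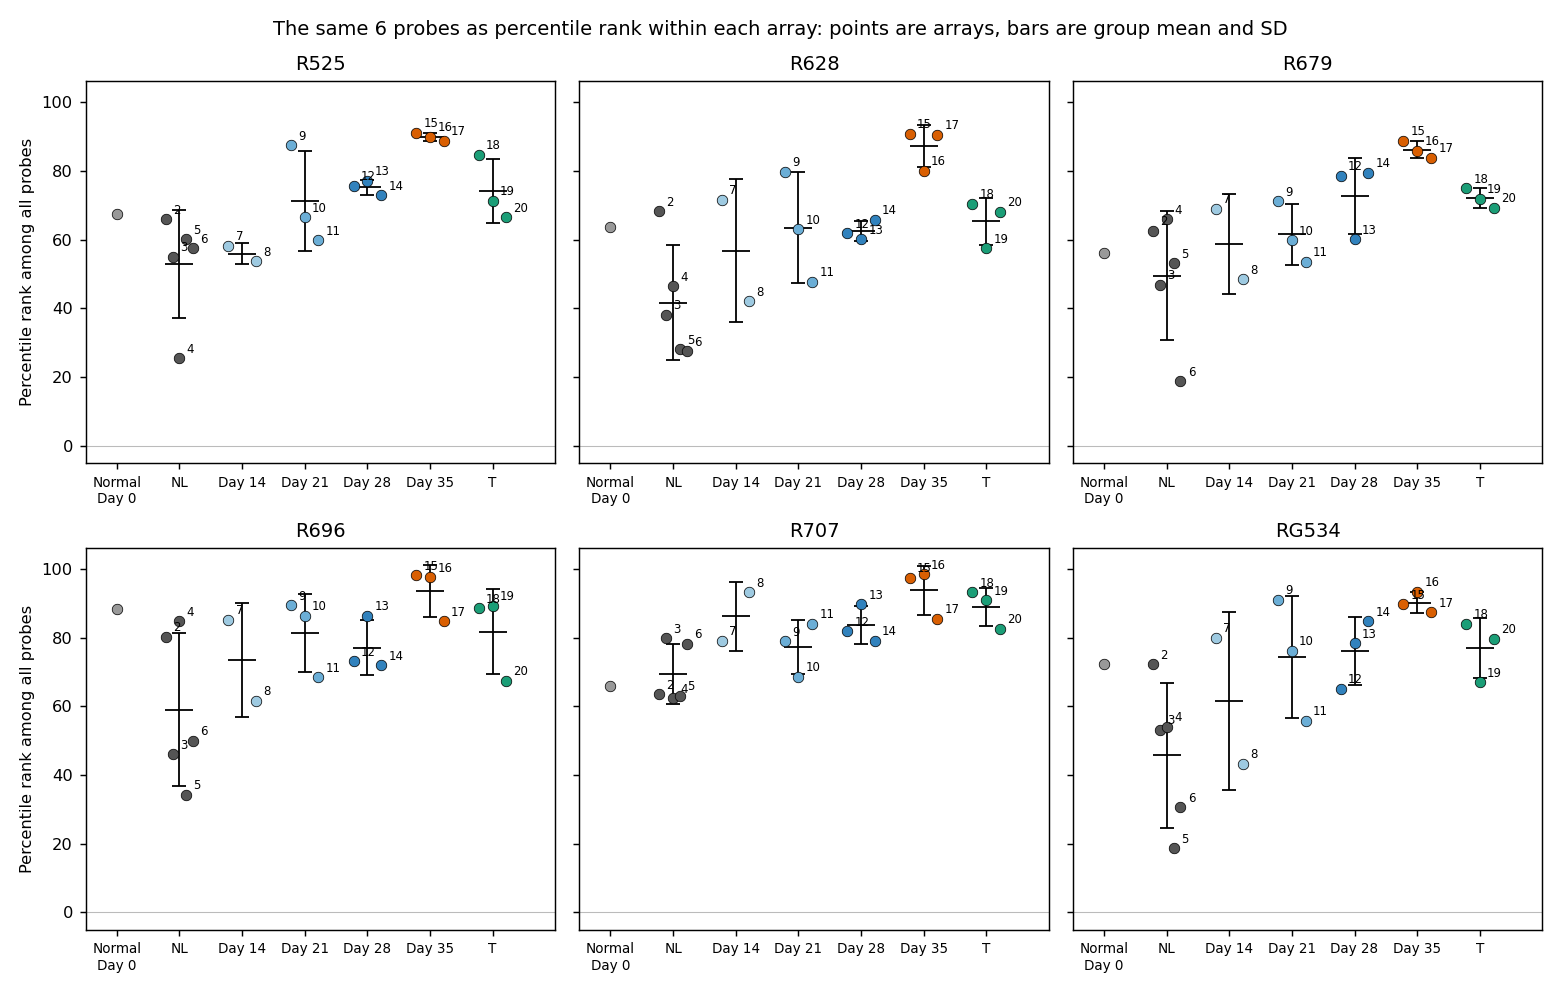
Percentile rank of each of the 6 probes among the 1185 probes of the same array (vertical axis) by labelled group (horizontal axis); points are arrays with their title number, and bars give the group mean and SD. T array 18 is the highest T point for R525, R628, R679, R707 and RG534, and the NL points are widely scattered.

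On percentiles the T difference was more than 50% of the Day 35 difference for all 6 probes: 52.0% for R628, 57.5% for R525, 61.5% for R679, 65.9% for R696, 70.2% for RG534 and 80.0% for R707. The median share was 63.7%, against 35.4% in deposited units. The property that T lay closer to NL than to Day 35 therefore held for the deposited values and not for the ranks, although Day 35 exceeded T in mean on both scales for each probe. The median percentile of the 6 probes was 84.4 in T array 18, whose interquartile range was 0.61, and 71.6 and 68.7 in T arrays 19 and 20, with ranges of 1.50 and 1.54, while their median deposited values were alike at 0.79, 0.75 and 0.61. In Day 35 arrays 15, 16 and 17 the median percentile was 91.0, 91.7 and 86.5. With the arrays brought to a common interquartile range the median share was 41.6%, with R707 alone over 50% at 51.8%. After quantile normalization the median share was 40.8%. Why the share differed between deposited values and percentiles was not tested.

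**Figure D4:**
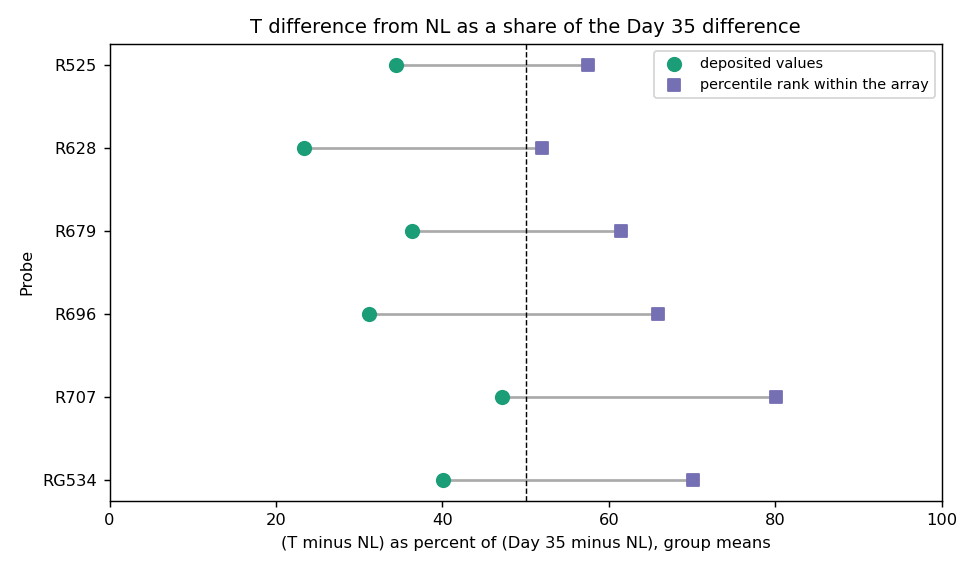
Difference of T from NL as a percentage of the difference of Day 35 from NL (horizontal axis) for each of the 6 probes (vertical axis), from group means of deposited values (circles) and of percentile ranks (squares); the dashed line marks 50%. All circles lie under 50%, from 23.3% to 47.1%, and all squares above it, from 52.0% to 80.0%.

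The Day 14 arrays were the one replicated group that did not serve the choice, although NL did, and low NL values favour a positive difference. None of the 6 probes passed the limma test of Day 14 against NL with Benjamini-Hochberg adjustment over 1179 probes, where the background of calls was 0.00% (59 probes had an unadjusted p under 0.05). For R707 the difference was 1.30 (SE 0.59, 95% interval 0.05 to 2.54, limma adjusted p = 0.81), with array 7 above 4 of the 5 NL arrays and array 8 above all 5. It was 0.56 without array 8, below R696 (1.03), RG534 (0.92) and R628 (0.67) in that fit, and 2.03 without array 7. The others were 0.07 for R525 (interval -0.48 to 0.62), 0.18 for R679 (-0.44 to 0.80), 0.23 for R628 (-0.48 to 0.94), 0.31 for RG534 (-0.52 to 1.14) and 0.47 for R696 (-0.82 to 1.77), with limma adjusted p from 0.81 to 0.92. The intervals are not adjusted for the number of probes. Their SEs draw on the scatter of all 6 groups of the fit. In a fit to NL and Day 14 alone the SE of R707 was 0.43, with limma adjusted p = 0.82.

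Day 14 hardly formed one level for the 6 probes. Array 7 read above array 8 for 5 of them and lay above every NL array for 4, while array 8 did so for R707 alone. Without array 7, where the 1 remaining array is taken to scatter as the other groups do, the differences of R628, R679, R696 and RG534 turned negative, at -0.20, -0.12, -0.08 and -0.30. In none of the 6 probes did every Day 14 array lie above every NL array, which 2.88% of tested probes showed.

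The same was true of Day 21 and Day 28, where 0 of the 6 probes cleared NL, with backgrounds of 1.95% and 1.70%. At Day 21 array 9 was the highest for 5 of the 6 and array 11 for R707. At Day 28 array 13 read the lowest for all 6 probes in deposited units; its interquartile range was 0.49, against 1.59 and 1.64 in arrays 12 and 14. On percentiles array 13 was instead the highest of Day 28 for R525, R696 and R707, and the median of the 6 was 77.8, against 74.4 and 76.0. The medians of the 6 differences from NL were 0.27 at Day 14, 0.40 at Day 21 and 0.66 at Day 28, the last close to that of T, and all tested probes had medians of -0.02, -0.02 and -0.07. The differences at Day 21 and Day 28 were part of the choice and are not tested.

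The single Normal Day 0 array, also not used in the choice, read 0.38 for R525, 0.29 for R628, 0.13 for R679, 1.44 for R696, 0.35 for R707 and 0.55 for RG534. It lay within the NL range for 5 probes and above it for R696. Every Day 35 array lay above it for the same 5 probes. With 1 array there is no spread to set these values against.

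How the probes varied inside a group was not set by the group means on which they were chosen. Deviations from the group means over the 19 arrays of replicated groups correlated with a median Pearson r of 0.44 over the 15 pairs of the 6 probes, where all pairs of tested probes had a median of 0.03 and quartiles of -0.35 and 0.44. Among R525, R628, R679 and RG534 the 6 pairs ran from 0.50 to 0.67. Without the Day 35 arrays they ran from 0.42 to 0.90, the highest being R628 with RG534. R696 ran from 0.21 with R628 to 0.56 with R679, and without the Day 35 arrays from 0.20 with R525 to 0.57 with R679. It thus overlapped the range of the 6 pairs without Day 35. Correlations of all tested pairs were not computed without the Day 35 arrays. R525, R628, R679 and RG534 were not named as a set in advance, and grouping probes by their r favours a high range. Within a group of arrays these 4 probes tended to be high and low in the same arrays.

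R707 did not follow them. Its r was -0.53 with R628, -0.13 with RG534, 0.00 with R679, 0.03 with R525 and 0.44 with R696, and the last became -0.19 without the Day 35 arrays. R696 and R707 thus moved together in the Day 35 arrays and not in the 16 others. Deviations of R707 correlated at 0.40 with those of the interquartile range of the array, those of R679 at 0.46, and those of R525, R628, R696 and RG534 at 0.08 to 0.16, where the quartiles over all tested probes were -0.71 and 0.55. All these correlations share arrays and scaling, are over few arrays and are given as descriptions.

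**Figure D5:**
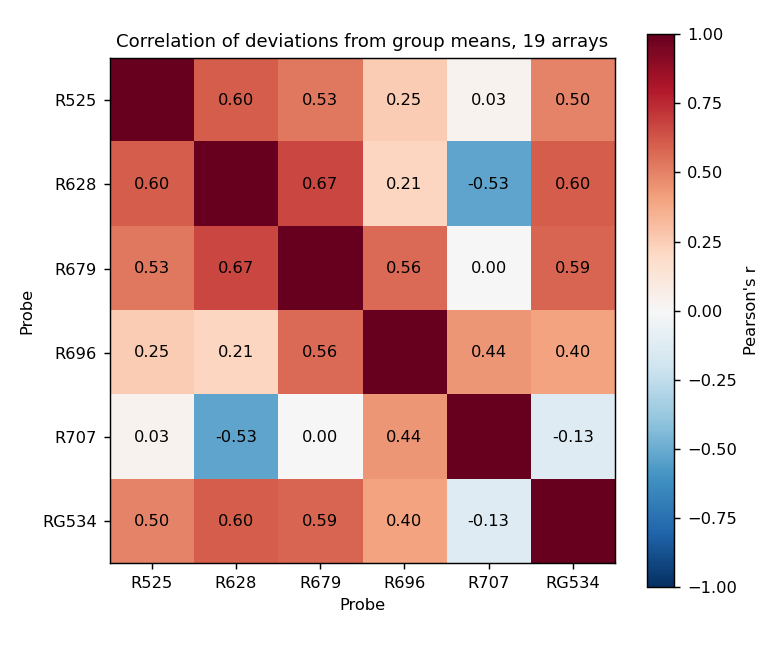
Pearson correlation of deviations from group means over 19 arrays for each pair of the 6 probes (both axes; colour scale from -1 to 1, value in each cell). R525, R628, R679 and RG534 form a block from 0.50 to 0.67, while R707 runs from -0.53 to 0.44 with the others.

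The probe most like the mean standardized profile of the 6 over the 20 arrays was R182, with r = 0.90. Its means were -0.05 in NL, 1.27 at Day 35 and 0.47 in T, a T share of 39.3%, and it was also the probe most like RG534 (r = 0.95) and R628 (r = 0.89). R017 (r = 0.86), RG416 (0.85), RG234 (0.84) and R272 (0.82) came next, with T shares of 59.3%, 48.6%, 30.8% and 75.5%, so 2 of these 4 lay over 50%. R477 was the probe most like both R696 (r = 0.80) and R707 (r = 0.85), RG129 the one most like R679 (r = 0.87), and R628 the one most like R525 (r = 0.88). The 6 probes themselves correlated with their mean profile at 0.77 for R707 and at 0.89 to 0.94 for the others. Each of the 6 is part of that profile, which raises its r, so these values cannot be set beside that of R182. The choice on group means also favours a high r over the 20 arrays.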

How the data were processed

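Whole-lung RNA was hybridised to 20 arrays. The authors deposited 1 processed score per probe and array, with 2 decimals. The array platform, background correction, normalization and log base were not given in the sources used here. Values entered all fits unchanged. They run from -1.95 to 9.71 with array medians of -0.01 to 0. The scale looks logarithmic, but no base is claimed.

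A probe was tested (1179 were) where 3 or more of 19 arrays exceeded the 25th percentile of the table (-0.32). The 6 groups entered 1 limma 3.58.1 model with 13 residual degrees of freedom (R 4.3.3; lmFit, eBayes, two-sided, Benjamini-Hochberg, threshold 0.05). The Normal Day 0 array was left out. The labels give no batch. The fit was also run on simulated data with independent noise and Day 14 effects larger than those of the 6 probes in the main fit. That run does not show the power to detect differences of the size seen here. Percentile ranks, correlations and figures used Python 3.11.15 and matplotlib 3.10.9. The 6 probes and the lists were chosen with earlier results of these data known. Beside the 6, the probes named were those nearest the rule's threshold, those with a T share below all of the 6, and the most correlated. Marker lists could not be run without gene names. Alternatives covered scaling, filters, floors, control arrays, variance settings and each array left out.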

Additional observations from a re-analysis of the deposited data

Results flagged for a closer look

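In NL, the only group with enough arrays for a test of a single outlying value (Dixon's ratio of the gap to the range, critical value 0.71 for 5 arrays), 2 of the 6 probes exceeded it, as did 9.08% of all 1179 tested probes in the same arrays, where the nominal rate is about 1 in 20. The NL values served the choice of the probes, so nothing is read from this count. For R628 the ratio was 0.719, with NL array 2 at 0.58 and the others at -0.06 or less. For R707 the ratio was 0.712, with NL array 3 at 1.14 and the others at 0.40 or less. Without NL array 2 the T share of R628 was 29.6%, and without NL array 3 that of R707 was 50.4%.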

How the results depend on the processing

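The median Day 35 difference of the 6 probes, 1.76 units, stayed within 1 SD of the Day 35 arrays under all 25 alternatives (1.52 to 1.98). The median T difference, 0.66, was 0.87 with a common interquartile range and 0.42 without NL arrays 4 to 6, and ran from 0.53 to 0.79 with 1 array left out. The median T share, 35.4%, was 40.8% after quantile normalization, 41.6% with a common interquartile range, 26.9% without NL arrays 4 to 6 and 63.7% on percentile ranks, and ran from 32.0% to 41.6% with 1 array left out. At Day 14 the number of probes called was 1 with values floored at the 20th percentile and 0 to 14 with 1 array left out, 14 without Day 14 array 8; none of the 6 was called in any of 174 fits (lowest limma adjusted p = 0.597). Without NL arrays 4 to 6 the Day 14 difference was -0.17 for R525 and -0.02 for RG534, and with 1 array left out the lowest values were -0.04 for R525, -0.20 for R628, -0.12 for R679, -0.084 for R696 and -0.30 for RG534, the first without NL array 4 and the rest without Day 14 array 7; the highest were 0.17, 0.67, 0.49, 1.03 and 0.92. The Day 14 difference of R707 ran from 0.56 without Day 14 array 8 to 2.03 without array 7. No paired analysis was possible because the running numbers of the arrays are unique. The within-group correlations without the Day 35 arrays were added after seeing the data. Signal over background is unknown.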
